A study of Mus musculus with 74 samples.

Results

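The 56 genes described here encode subunits of the receptors through which a neuron answers transmitters: GABA-A receptors, AMPA, kainate and NMDA glutamate receptors, metabotropic glutamate receptors, nicotinic acetylcholine receptors, glycine receptors, 5-HT3 serotonin receptors and P2X receptors for ATP. Members were protein-coding mouse genes whose symbol begins with Gabr followed by a, b, d, e, g, p, q or r, with Gria, Grik, Grin or Grm and a digit, with Chrn followed by a, b, d, e or g, with Glra or Glrb, with Htr3, or with P2rx. A gene was kept when its mean over 8 libraries of whole dorsal root ganglion (DRG) was at least 10 reads, and 56 of the 73 genes with such a symbol passed, out of 53379 genes in the files. They divide into 14 of 19 GABA-A genes, 4 of 4 AMPA, 5 of 5 kainate, 7 of 7 NMDA, 5 of 8 metabotropic glutamate, 11 of 16 nicotinic, 2 of 5 glycine, 2 of 2 5-HT3 and 6 of 7 P2X genes. The working name for them was ligand-gated transmitter receptor subunits, and it fits 8 of these families: the 5 metabotropic glutamate genes encode G protein-coupled receptors, which hold no channel of their own.

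The study asked how sensory neurons of the mouse L4 DRG respond when their central branch is cut in the spinal cord, compared with damage to their peripheral branch in the sciatic nerve. RNA was sequenced from whole ganglia and from sorted neurons, in 74 libraries from 8 and 22 mice. Whole ganglia came from C57BL/6 wild-type females of 10 to 12 weeks, 4 uninjured and 4 taken 1 day after a dorsal hemisection of the spinal cord at T9/10 (spinal cord injury, SCI), with 1 library per mouse made from RNA depleted of ribosomal RNA. Sorted neurons came from females of the Thy1YFP16 strain of 10 to 20 weeks, whose YFP transgene under the Thy1 promoter labels large-diameter sensory neurons, so that YFP-positive dorsal column neurons are meant to enter the sort. They were sorted by FACS from L4 DRG at about 100 cells per well and 3 wells per mouse. The groups were 6 naive mice, 4 mice 1 day and 4 mice 3 days after sciatic nerve crush (sciatic nerve injury, SNI), and 4 mice 1 day and 4 mice 3 days after SCI. The wells of 1 mouse were summed, so that a mouse is 1 replicate, and the sample titles divide the wells into 2 sets of 36 and 30 wells.

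Reads assigned to genes numbered 21959030 to 44493319 (median 38172045) in the uninjured whole ganglia and 22318491 to 42880850 (median 28660121) in those after SCI. Summed over its wells, a sorted mouse held 30518187 to 83599972 reads (median 50678522): 47699504 to 74653760 in naive mice, 30518187 to 79826087 at 1 day and 43070113 to 66829030 at 3 days after SNI, and 37759032 to 63688434 at 1 day and 50582929 to 83599972 at 3 days after SCI. Single wells held 1494217 to 49015375. Levels are given as CPM, the reads of a gene relative to all reads assigned to genes in the library, after TMM scaling within whole DRG or within FACS, with the SD over mice. A CPM value rises with the length of a transcript, so genes are compared with each other only as CPM per kilobase of exon.

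As background, ionotropic receptors are assemblies of several subunits around an ion pore, and the subunits present set the pharmacology, the kinetics and the place of the receptor in the membrane. GABA-A and glycine receptors pass chloride, and in primary sensory neurons, which keep their internal chloride high, GABA depolarises the central terminals and filters what they send to the spinal cord. Nicotinic, 5-HT3, AMPA, kainate, NMDA and P2X receptors pass cations, while metabotropic glutamate receptors signal through G proteins.

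Some sorted wells stood apart from the others. In 20 of 66 wells the summed CPM of 12 glia genes was above the summed CPM of 8 neuron genes, and these are called glia-rich wells below. They made up 6 of 18 naive wells, 3 of 12 at 1 day and 4 of 12 at 3 days after SNI, 3 of 12 at 1 day and 4 of 12 at 3 days after SCI, and 7 of 36 and 13 of 30 wells of the 2 sets. Their neuron genes had a median sum of 447 CPM against 32286 CPM in the other wells, and their glia genes 78681 against 4114 CPM. The neuron sums overlapped: they ran from 75.1 to 17064 CPM in glia-rich wells, and the lowest other well held 10530 CPM. The receptor genes were sparse in the glia-rich wells, and 44 members had a lower mean there. Gabra2, which encodes the alpha2 GABA-A subunit, had a median of 1.37 CPM there against 303 CPM in the other wells, and was lower in all of the 12 mice that had wells of both kinds. Glrb, the glycine receptor subunit that binds the synaptic scaffold, had 0.493 against 170 CPM, lower in 12 of 12 mice. Gria4, the GluA4 AMPA subunit, had 0.0807 against 34.6 CPM, lower in 12 of 12 mice. Gabrg1, the gamma1 GABA-A subunit, had 0.339 against 138 CPM, lower in 11 of 12 mice. The pattern was not shared by all members: the GluA3 gene Gria3 had medians of 19.3 and 24.0 CPM and was higher in the glia-rich wells in 8 of 12 mice, and P2rx7, an ATP receptor gene of glia and immune cells, had medians of 0.486 and 0.376 CPM and was higher in 5 of 12 mice and lower in 7. In 2 mice, replicate 3 at 3 days after SCI and replicate 3 at 3 days after SNI, all 3 wells were glia-rich. Not all of these wells were poor in neuron genes. Their sums were 17064 and 14563 CPM in wells a and b of the SNI mouse, and 10735 CPM in well a of the SCI mouse. Well a of naive replicate 5, at 10530 CPM of neuron and 10034 CPM of glia genes, was kept. The counts of called members after each injury and between the injuries are therefore given with all wells and without the glia-rich wells, which leaves 20 mice, 3 in each 3-day group. Other FACS values are with all wells where nothing else is said. Gria3, P2rx7, Gabrg1, and the other genes named below without being called or ranked by the naming rule, were chosen after their values were seen.

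Markers of cell types described the ganglia further. In whole DRG the neuron list summed to 18312 ± 790 CPM (SD, n = 4) in uninjured mice and 17960 ± 422 CPM (n = 4) after SCI, with Nefl the most abundant gene. The glia list summed to 7486 ± 221 and 6918 ± 798 CPM, with Apoe the most abundant, and the nociceptor list to 3358 ± 209 and 3422 ± 142 CPM, with Calca the most abundant. The skeletal muscle list was at 7.10 to 35.4 CPM in uninjured mice, and after SCI at 933 CPM in replicate 1, 8.62 CPM in replicate 2, 6.90 CPM in replicate 3 and 770 CPM in replicate 4, with Ttn the most abundant of its 6 genes. The blood list was at 18.4 ± 3.47 CPM in uninjured mice and 60.6 ± 29.2 CPM after SCI. By edgeR's test, described with the comparison below, 4 of the 5 blood genes were called, all higher, and 1 of the 7 nociceptor genes, Mrgprd, lower. It called 0 of the 6 muscle genes (6 at an unadjusted p under 0.05, 5 by DESeq2), 0 of the 12 glia genes (5 and 2) and 0 of the 8 neuron genes (0 and 0). Muscle and blood RNA thus came with some of the injured ganglia, and their part in the results was not tested, apart from the fit without the 2 muscle-rich mice given below. In the sorted neurons the nociceptor list was far from even. It summed to 35.2, 7197, 884, 2779, 15941 and 1418 CPM in naive replicates 1 to 6, to 311, 73.6, 473 and 9121 CPM in the mice at 1 day after SNI, and to 138, 298, 1.78 and 350 CPM at 3 days after SNI. After SCI it summed to 218, 14.9, 2776 and 12496 CPM in the mice at 1 day and to 21.4, 2415, 1.76 and 983 CPM at 3 days. Calca or Tac1 was its most abundant gene in each mouse, and the nociceptor marker Mrgprd was at 0 in most mice.

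The threshold of 10 reads fell among genes of similar level. Just inside it were Chrna5 with a mean of 10.25 reads, Gabrr1 with 10.75 and Grin2b with 11.625. Outside it were Gabrr3 with 8.0 and Gabrr2 with 7.625. In the sorted neurons a gene was tested when at least 1 mouse held 20 reads of it, which 52 of the 56 members reached and Gabre, Grin2b, Grin2c and Chrna5 did not. Of these 52, 33 reached 20 reads in some mouse of each of the 5 groups, and Grin3b reached it in naive mice but in no injured group. Detection was uneven: 20 members reached 20 reads in at least 19 of the 22 mice, and 16 did so in 5 mice or fewer. Gabra2, Gria3 and P2rx4 did so in all 22. Conversely, 6 of the 17 genes below the whole DRG threshold reached 20 reads in some sorted mouse.

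Several members sit in genomic clusters that mix subunit classes (GRCm38 coordinates, GENCODE vM21 annotation). Gabra5 and Gabrg3 lie next to each other on the minus strand of chromosome 7, at chr7:57407672-57510059 and chr7:56716465-57387188. Gabrg1, Gabra2, Gabra4 and Gabrb1 lie on chromosome 5, at chr5:70751047-70842617, chr5:70957597-71095849 and chr5:71569749-71658308 on the minus strand and chr5:71658113-72149037 on the plus strand. The 5-HT3 genes are neighbours on the minus strand of chromosome 9, Htr3a (ENSMUSG00000032269.8) at chr9:48899213-48911099 and Htr3b (ENSMUSG00000008590.4) at chr9:48935008-48964990. Among the nicotinic genes, Chrnb3 and Chrna6 adjoin at chr8:27368711-27399730 (plus) and chr8:27403212-27413944 (minus), and Chrna5, Chrna3 and Chrnb4 at chr9:54980880-55007779 (plus), chr9:55010111-55026562 and chr9:55028154-55048779 (minus). Exon bases were shared with another gene by 20 members, and in 5 the share was over 10%: Grin1 with Grin1os, P2rx6 with Slc7a4, Chrnb2 with Adar, Grin3b with Tmem259 and Chrna10 with Art1, all on opposite strands. The strand setting of the counting was not given in the sources used here, so the reads of such pairs cannot be told apart.

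Whole DRG of uninjured mice expressed the families at very different levels. Htr3a, the subunit every 5-HT3 receptor needs, stood highest at 102.6 ± 3.15 CPM per kb (SD, n = 4). Glrb followed at 55.5 ± 7.41 CPM per kb, then P2rx3, the ATP receptor subunit of small sensory neurons, at 43.6 ± 3.28. Grik1, which encodes the GluK1 kainate subunit, was at 36.6 ± 1.61 CPM per kb, and Chrna7, which forms nicotinic receptors without a partner, at 32.1 ± 6.02. The spread of Chrna7 reaches that of Grik1, while those of P2rx3 and Glrb do not overlap. Lower in order came the level of Gria4 at 20.6 ± 0.470 CPM per kb, of the nicotinic gene Chrna6 at 17.0 ± 2.04 and of Gabra2 at 16.0 ± 1.24, and the SDs of the last pair overlapped. Grm7, a presynaptic metabotropic receptor gene, was at 14.1 ± 0.467 CPM per kb, Htr3b at 9.68 ± 0.664 and Grin1, the subunit that NMDA receptors require, at 6.74 ± 0.705. Over the 56 members the level ran from 0.0128 (Grin2b) to 102.6 CPM per kb with a median of 2.54, and 25 members lay above 3.34 CPM per kb, the median of all genes tested.

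In naive sorted neurons the order of levels per kilobase was different. With all wells, Htr3a averaged 81.7 ± 106 CPM per kb (SD, n = 6), an SD above the mean, Gabra2 35.8 ± 28.8, Glrb 26.3 ± 17.2 and P2rx3 13.7 ± 19.5. Gria4 was at 5.94 ± 3.20 CPM per kb and Grik1 at 2.21 ± 2.33. The mean of Chrna6, 3.69 ± 9.03 CPM per kb, rested on replicate 5, which held 64.3 CPM where no other naive mouse passed 0.0780 CPM. The median over members was 0.968 CPM per kb.

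**Figure D1:**
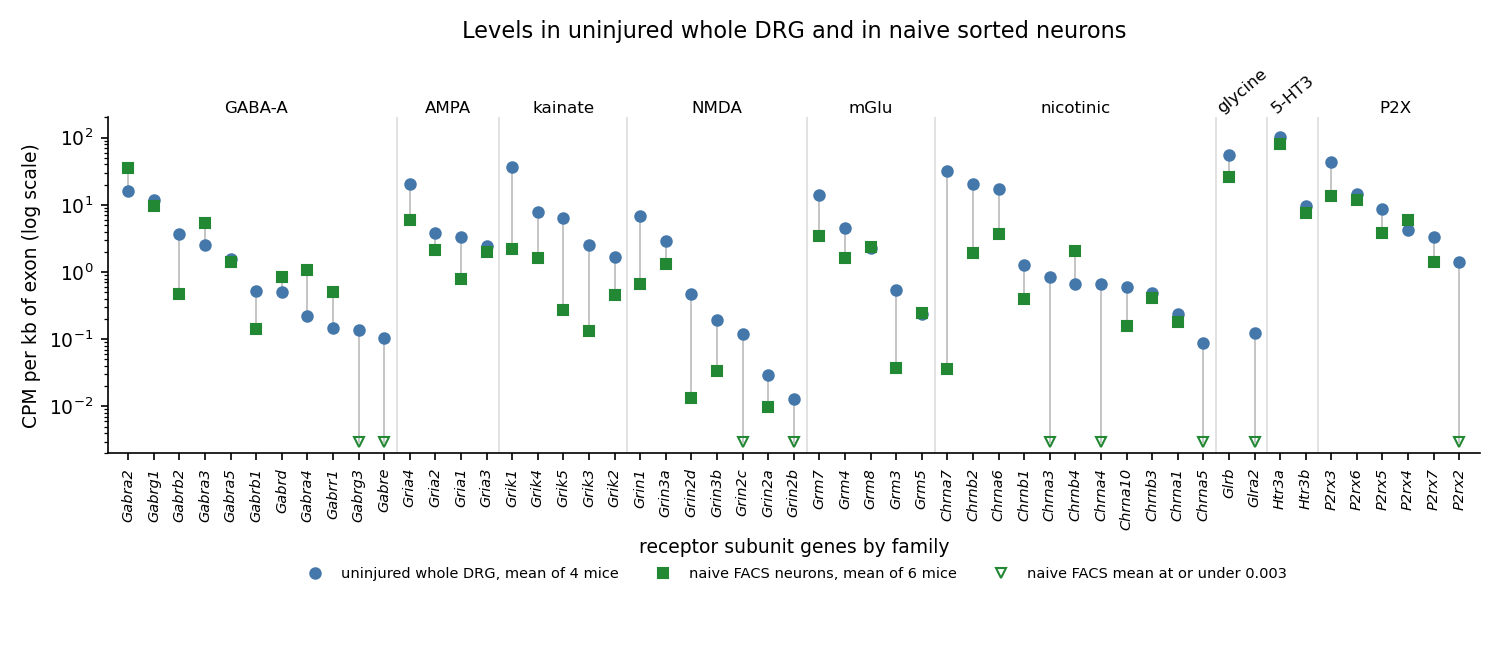
Level of members in CPM per kilobase of exon (log axis), as the mean of 4 uninjured whole DRG mice (blue circles) and of 6 naive FACS mice with all wells (green squares; open triangles mark a naive mean of 0.003 or less). By these means Htr3a stood highest in both, at 102.6 and 81.7 CPM per kb. Its naive SD of 106 CPM per kb was above the mean, so this rank need not hold in each naive mouse.

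Within a family, 1 or a few genes made up most of the whole DRG signal per kilobase. Grik1 supplied 66.4% of the summed kainate CPM per kb in uninjured mice, Gria4 68.2 ± 0.397% of AMPA, Grm7 65.3% of metabotropic glutamate, Glrb 99.8% of glycine and Htr3a 91.4 ± 0.322% of 5-HT3. Among NMDA genes Grin1 supplied 64.3% and Grin3a, a subunit that lowers the calcium entry of the receptor, 28.0%. Among GABA-A alpha genes Gabra2 supplied 52.6% and Gabra5, the alpha5 gene whose product is common in receptors outside synapses, 5.07 ± 0.699%. Nicotinic signal was divided among Chrna7 with 42.7 ± 3.73%, Chrnb2 with 27.8% and Chrna6 with 23.0 ± 4.01%. P2rx3 supplied 57.6 ± 1.34% of P2X signal in whole DRG and 33.0 ± 33.4% in naive sorted neurons without glia-rich wells, where P2rx6 supplied 34.4%.

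Whole DRG taken 1 day after SCI was compared with uninjured DRG to ask what the spinal lesion changes across the whole ganglion. Both 5-HT3 genes and the alpha5 GABA-A gene were higher after SCI, and they were the 3 members that passed an adjusted p of 0.1 in edgeR's quasi-likelihood test (two-sided, Benjamini-Hochberg adjustment over 17616 genes). Htr3b, a subunit that joins Htr3a in receptors of larger conductance, stood at 22.6, 25.7, 23.0 and 22.03 CPM in the uninjured mice and at 32.7, 35.5, 30.5 and 31.7 CPM in the injured mice. Each injured mouse lay above each uninjured mouse. The means were 23.3 ± 1.60 and 32.6 ± 2.13 CPM (SD over 4 mice in each group), which is a log2 difference of 0.48 (SE 0.0783, fold 1.40, adjusted p 0.0227, higher in 4 of 4 injured mice). Htr3a stood at 211, 222, 216 and 206 CPM in the uninjured mice and at 266, 273, 251 and 253 CPM after SCI. Here too the groups did not overlap, with injured replicates 1 and 2 highest. Its means were 214 ± 6.56 and 261 ± 10.5 CPM, a log2 fold change of 0.29 (SE 0.0570, fold 1.22, adjusted p 0.0455, higher in 4 of 4 injured mice). Gabra5 (ENSMUSG00000055078.7) stood at 4.26, 4.03, 4.97 and 5.01 CPM in the uninjured mice and at 6.63, 7.60, 8.38 and 6.30 CPM after SCI. No injured mouse reached down to the uninjured range, and injured replicate 3 was highest. Its means were 4.57 ± 0.497 and 7.23 ± 0.949 CPM, a log2 fold change of 0.66 (SE 0.127, fold 1.59, adjusted p 0.0407, higher in 4 of 4 injured mice). In bulk tissue such as this, more cells of a type and more RNA per cell cannot be told apart.

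**Figure D2:**
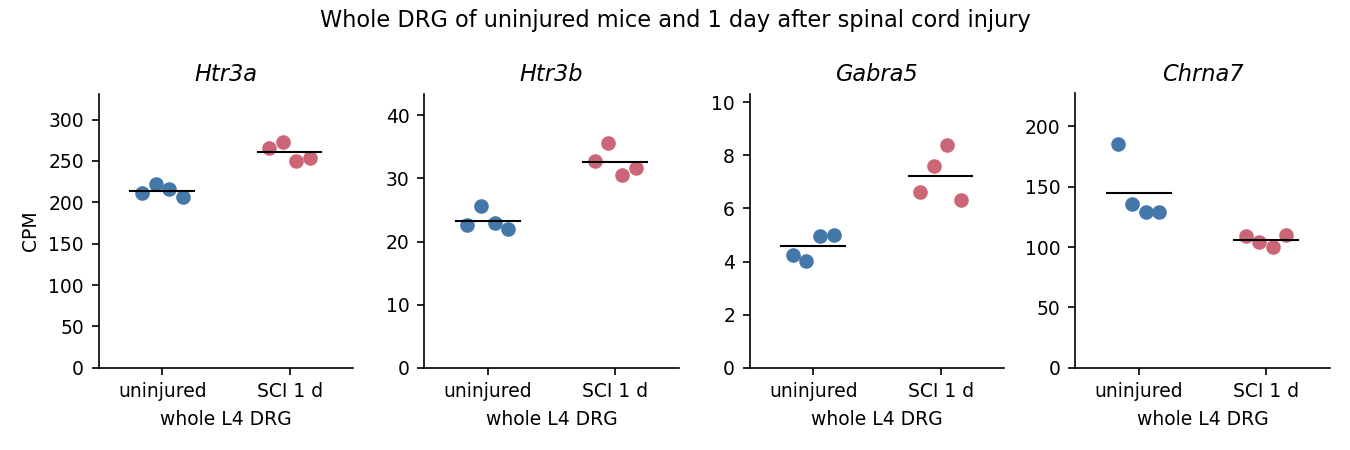
CPM of Htr3a, Htr3b, Gabra5 and Chrna7 in whole DRG of uninjured mice and of mice 1 day after SCI, 1 point per mouse and a line at each group's mean (n = 4 each). The groups do not overlap for any of the 4 genes, and uninjured replicate 1 stands apart for Chrna7 at 185 CPM.

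How firmly these calls stood differed between the genes. Htr3b passed with each of the 8 mice left out in turn, at log2 fold changes of 0.44 to 0.53. Gabra5 passed in 5 of 8 such fits (0.59 to 0.72) and did not without injured replicate 2 (adjusted p 0.126), uninjured replicate 2 (0.140) or uninjured replicate 3 (0.115). Htr3a passed in 3 of 8 (0.26 to 0.31) and did not without injured replicate 1 (0.139) or 2 (0.141) or uninjured replicate 2 (0.127), 3 (0.140) or 4 (0.156). Without the 2 injured mice with skeletal muscle markers, a fit chosen after seeing the data, Gabra5 was the member called, at 0.81 with an adjusted p of 0.0546. Htr3b at 0.50 (adjusted p 0.107) and Htr3a at 0.29 (0.167) did not pass there, though their log2 fold changes were no smaller than with all 8 mice. Over all alternatives the adjusted p ran from 1.69e-05 to 0.107 for Htr3b, from 0.000401 to 0.140 for Gabra5 and from 0.000178 to 0.167 for Htr3a. Within the 5-HT3 pair the summed level went from 112 ± 3.77 to 139 ± 5.89 CPM per kb, and the share of Htr3a from 91.4 ± 0.322 to 90.2 ± 0.256%. The share of Gabra5 among alpha genes went from 5.07 ± 0.699% (4.39 to 5.70) to 8.96 ± 2.19% (6.91 to 12.0), while Gabra2 went from 52.6 to 49.3%.

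Beside these 3 of 56 members, all higher, 2.32% of all genes tested were called (1.38% higher and 0.937% lower). At an unadjusted p under 0.05 there were 16 members, 7 higher and 9 lower, beside 2570 of all 17616 genes. DESeq2 called 7 members, with 5.27% of all genes: the same 3, Chrna7, Chrna6, Gabrb2 and P2rx2. All injured mice lay above all uninjured mice for 4 members (Gabra5, Gria3, Htr3a and Htr3b; 4.92% of all genes did) and below them for 7 (Chrna3, Chrna7, Chrnb2, Chrnb4, Gabrb2, Grik4 and Grm5; 6.07% of all genes did). The median log2 fold change of the members was −0.06 with a median SE of 0.113, against 0.01 over all genes, and 24 of 56 were above 0.

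The nicotinic genes did not pass the test. Chrna7 (ENSMUSG00000030525.8, chr7:63098692-63212569, minus strand) stood at 185, 135, 129 and 129 CPM in the uninjured mice and at 109, 104, 99.7 and 110 CPM after SCI. The groups did not overlap, and uninjured replicate 1 was far above the other uninjured mice. Its log2 fold change was −0.45 (SE 0.113, adjusted p 0.102, lower in 4 of 4 injured mice), and without uninjured replicate 1 it was −0.31 and passed (adjusted p 0.0412). Across alternatives its adjusted p ran from 0.0173 to 0.234. Chrna6, which enters heteromeric nicotinic receptors with beta subunits, stood at 43.7, 48.3, 47.5 and 57.6 CPM in the uninjured mice and at 68.8, 59.2, 55.9 and 68.9 CPM after SCI. Injured replicate 3 lay inside the uninjured range. Its log2 fold change was 0.36 (SE 0.102, adjusted p 0.142, range over alternatives 0.0552 to 0.427), and it passed when injured replicate 3 was left out, a fit that called 5 members, among them P2rx7. Per kilobase, the share of Chrna7 in the nicotinic sum was 42.7 ± 3.73% in uninjured mice and 34.3 ± 0.675% after SCI, that of Chrna6 23.0 ± 4.01 and 31.8 ± 1.82%, and that of Chrnb2 27.8 and 26.9%, while the sum was 74.6 ± 7.40 and 68.3 ± 3.53 CPM per kb.

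Of the remaining members with the smallest p, 3 had lower means after SCI without passing. Gabrb2, the beta2 GABA-A subunit gene, stood at 23.3, 21.1, 24.5 and 25.3 CPM in the uninjured mice and at 20.3, 18.5, 19.8 and 19.9 CPM after SCI (log2 fold change −0.26, adjusted p 0.167, range 0.0746 to 0.367). Grik4, a kainate subunit gene that needs a GluK1 to GluK3 partner, stood at 52.6, 44.6, 44.7 and 46.4 CPM and at 41.6, 39.6, 40.9 and 39.4 CPM (−0.22, adjusted p 0.188, range 0.113 to 0.373). For both genes each injured mouse lay below each uninjured mouse. P2rx2, which pairs with P2rx3 in ATP receptors, stood at 3.04, 4.23, 3.29 and 4.01 CPM and at 2.22, 2.78, 1.95 and 3.19 CPM, and the groups overlapped (−0.55, adjusted p 0.193, range 0.0976 to 0.403).

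The most abundant genes of the other families did not pass either. Some differed by less than their SD: Grik1 was at 246 ± 10.8 CPM in uninjured mice and 243 ± 20.8 CPM after SCI, Glrb at 258.5 ± 34.5 and 268 ± 22.8 CPM, Grin1 at 65.3 ± 6.84 and 66.004 ± 3.49 CPM, and P2rx3 at 122 ± 9.15 and 116 ± 10.9 CPM. Others differed by more than the SD of at least 1 group: Gria4 was at 129.7 ± 2.96 and 140.7 ± 6.59 CPM, Gabra2 at 122 ± 9.44 and 104.5 ± 15.6 CPM and Grm7 at 83.1 ± 2.75 and 76.2 ± 4.65 CPM. Summed over all 56 members, the level was 515.2 ± 6.72 CPM per kb in uninjured mice and 530.2 ± 17.0 after SCI.

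Naive sorted neurons were set against uninjured whole DRG to ask which receptor genes the labelled neurons carry relative to the whole ganglion. Strain, library kit, sorting and cell content differ between the 2 kinds of sample and cannot be told apart. Most members were lower in the sorted neurons, and the nicotinic gene Chrna7, abundant in the ganglion, was close to absent. On CPM of each library's own total, Chrna7 stood at 180, 135, 130 and 128 CPM in whole DRG and at 0 to 0.321 CPM (median 0.128) in the 6 naive mice. No sorted mouse came near the whole DRG range. The difference of mean log2(CPM + 1) was −6.96 (SE 0.131, exact permutation test over mice, two-sided, adjusted p 0.0161, lower in 6 of 6 naive mice), at the smallest p the design can give, 0.0047619. Grik1 stood at 241, 249, 232 and 254 CPM in whole DRG and at 0 to 39.0 CPM in the naive mice. Every naive mouse lay below the ganglia, with replicate 5 at 0. Its difference was −4.92 (SE 0.913, adjusted p 0.0258 by the exact permutation test, 6 of 6 naive mice lower). Grik5, the GluK5 kainate subunit gene, stood at 39.0, 31.6, 29.7 and 30.8 CPM in whole DRG and at 0.105 to 2.98 CPM in the naive mice, also with no overlap (−3.99, SE 0.327, adjusted p 0.0161, 6 of 6 lower). Chrna6 stood at 42.5, 48.2, 47.9 and 57.2 CPM in whole DRG. In naive replicate 5 it reached 44.7 CPM, inside the whole DRG range, while the other naive mice held at most 0.0629 CPM (−4.70, SE 0.920, adjusted p 0.0258 by the exact permutation test, and −5.61 without replicate 5).

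By that test 35 of the 56 members differed, all 35 lower in the sorted neurons, with 34 at an unadjusted p under 0.05. The background was high: 57.4% of all genes passed, 9.23% higher and 48.1% lower. All naive mice lay below all uninjured ganglia for 28 members (40.9% of all genes) and above them for 0 (7.15% of all genes). Without the glia-rich wells 32 members passed (61% of all genes), 28 lay below without overlap (43.8% of all genes) and 0 above (7.86%). Leaving out 1 mouse gave 26 to 34 members, 26 without any 1 of the uninjured ganglia. The median difference was −1.49 for the members and −0.79 for all genes.

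The members nearest to or above their whole DRG level did not pass the test. Gabra2 stood at 132, 123, 115 and 116 CPM in whole DRG and at 28.6 to 689 CPM (median 259.5) in the naive mice, with 4 naive mice above the ganglia and replicates 5 and 6 below (0.55, SE 0.738, adjusted p 0.677 by the exact permutation test). Gabra4, the alpha4 gene, stood at 1.00, 1.57, 1.27 and 1.54 CPM in whole DRG and at 0 to 23.0 CPM in the naive mice, again with 4 above and replicates 5 and 6 below (0.93, SE 0.778, adjusted p 0.481). P2rx4, an ATP receptor gene of neurons and microglia, stood at 25.2, 30.5, 30.7 and 30.7 CPM in whole DRG and at 19.8 to 94.1 CPM in the naive mice (0.16, adjusted p 0.903), and without naive replicate 6, the highest, the difference was −0.14. Gabrr1, a rho GABA receptor gene, differed by 0.25 (adjusted p 0.924), and by −0.20 without naive replicate 4.

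After sciatic nerve crush, sorted neurons were compared with naive sorted neurons to ask how neurons respond to a peripheral injury. Without the glia-rich wells the GABA-A genes for the alpha5 and gamma1 subunits were called higher at both times, and the beta1 gene at 3 days. Of all genes, 5.6% were called higher at 1 day and 4.16% at 3 days in these fits. The test was edgeR's quasi-likelihood test with 2 factors of unwanted variation as covariates, and leaving out mice was run with all wells. With these covariates left out as well, no member was called.

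Gabra5 was scarce in naive sorted neurons and abundant after SNI. It ranged from 0 to 15.7 CPM (median 2.29) in naive mice. It stood at 81.7, 34.2, 49.3 and 67.9 CPM at 1 day and at 198, 53.2, 0.337 and 51.3 CPM at 3 days after SNI. Each mouse at 1 day lay above each naive mouse, and at 3 days all did but the mouse whose wells were all glia-rich. Wells a and b of that mouse still held 17064 and 14563 CPM of neuron genes. The kept well of naive replicate 5 held 10530 CPM. With all wells edgeR did not call Gabra5 at 1 day (4.62, SE 1.26, adjusted p 0.143) or at 3 days (3.92, SE 1.25, adjusted p 0.208). DESeq2 with all wells called it at both times (adjusted p 0.000307 at 1 day). Without glia-rich wells the naive range was 0 to 16.7 CPM (median 2.83), the mice at 1 day stood at 106, 44.3, 71.3 and 77.3 CPM, and those at 3 days at 241, 57.2 and 51.3 CPM. No injured mouse then overlapped the naive mice. The log2 fold change was 4.30 at 1 day (SE 1.06, adjusted p 0.0411, higher in 4 of 4 mice) and 4.87 at 3 days (SE 1.11, adjusted p 0.0391, 3 of 3 mice). Over all alternatives the adjusted p ran from 0.000307 to 0.664 at 1 day and from 0.000418 to 0.686 at 3 days, and without glia-rich wells and covariates, a fit chosen after seeing the data, it was 0.171 (3.97) and 0.139 (4.61), so the calls depended on the covariates. With all wells at 1 day the change ran from 3.88 to 5.52 as mice were left out, and passed without replicate 4 at 1 day after SCI, replicate 3 or 4 at 3 days after SCI, or replicate 3 at 3 days after SNI.

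The gamma1 and beta1 genes passed without glia-rich wells. Gabrg1 (ENSMUSG00000001260.10), then ranged from 0 to 225 CPM (median 101) in naive mice. It stood at 301, 150, 285 and 57.2 CPM at 1 day and at 512, 338 and 392 CPM at 3 days after SNI. The mice at 3 days were all above the naive mice, and those at 1 day overlapped them. Its log2 fold change was 2.16 at 1 day (SE 0.688, adjusted p 0.0976, 3 of 4 mice above the naive median) and 2.92 at 3 days (SE 0.718, adjusted p 0.0511, 3 of 3 mice). With all wells it was 2.67 (adjusted p 0.201) and 2.28 (0.306), and over all alternatives its adjusted p ran from 0.00750 to 0.896 at 1 day and from 0.000841 to 1.0 at 3 days. Gabrb1, the beta1 gene, ranged from 0.0866 to 5.27 CPM (median 2.25) in naive mice without glia-rich wells and stood at 23.9, 6.11 and 13.9 CPM 3 days after SNI, each above every naive mouse (3.33, SE 0.806, adjusted p 0.0484, range over alternatives 0.00150 to 0.715). With all wells its change was 2.80 (adjusted p 0.195) by edgeR. DESeq2 with all wells called Gabrg1 at both times and Gabrb1 at 3 days. In the same fits without glia-rich wells 5 marker genes of cell types were called too, all higher. At 1 day these were Spp1 and Ntrk3, of the 6 genes listed for proprioceptors and low-threshold mechanoreceptors (median log2 fold change 1.28 against 0.35 for all genes), and the nociceptor gene Mrgprd, and at 3 days the neuron gene Tubb3 and the neutrophil gene Ly6g. The part of cell content in the receptor calls was not tested.

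**Figure D3:**
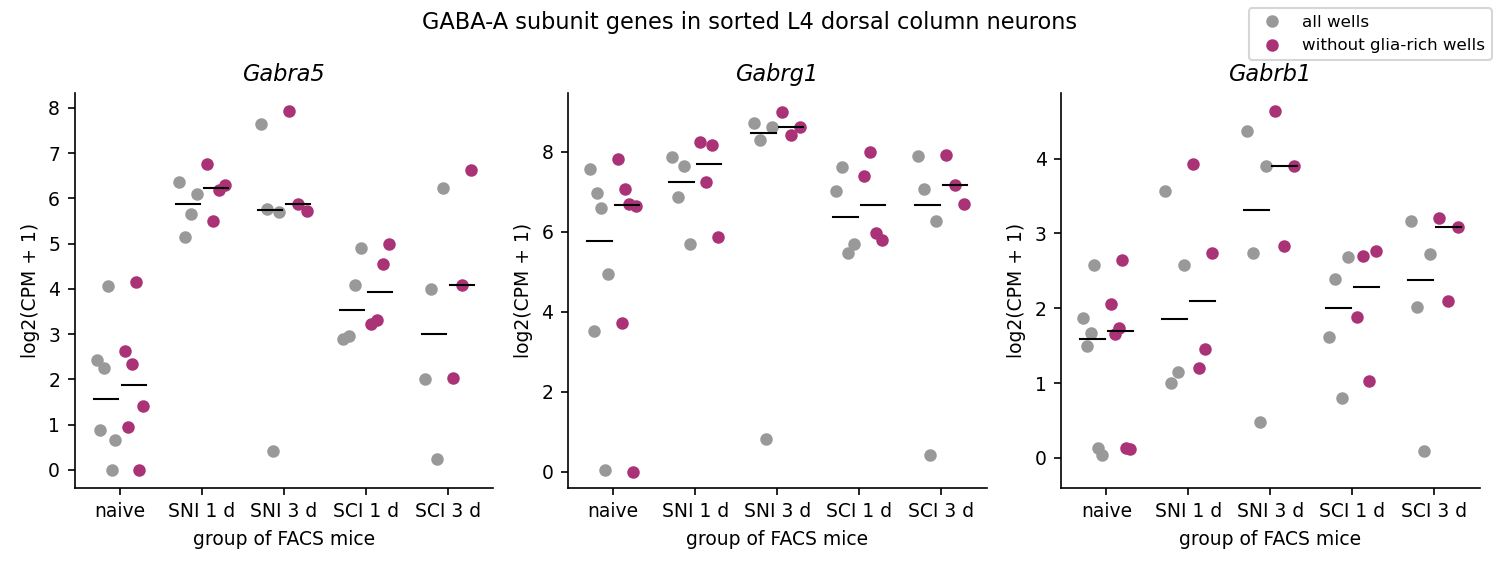
log2(CPM + 1) of Gabra5, Gabrg1 and Gabrb1 in sorted neurons of the 5 FACS groups, 1 point per mouse with all wells (grey) and without glia-rich wells (purple), and a line at each median. Without glia-rich wells the mice after SNI lie above the naive mice for Gabra5 (at least 44.3 CPM against at most 16.7 CPM).

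Per kilobase, and without glia-rich wells, Gabra5 made up more of the summed alpha signal in SNI mice than in naive mice. The share of Gabra5 in the alpha sum was 2.25 ± 2.65% (0 to 7.39, n = 6) in naive mice, 37.4 ± 5.43% (33.1 to 44.5, n = 4) at 1 day and 41.4 ± 15.4% (30.4 to 59.0, n = 3) at 3 days after SNI, against 76.1, 50.1 and 47.7% for Gabra2. The alpha sum was 56.9 ± 30.2, 69.2 ± 29.5 and 83.2 ± 47.1 CPM per kb. After SCI the share of Gabra5 was 11.0 ± 9.47% (3.13 to 24.2) at 1 day and 14.4 ± 15.9% (1.79 to 32.3) at 3 days. These shares were not tested.

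**Figure D4:**
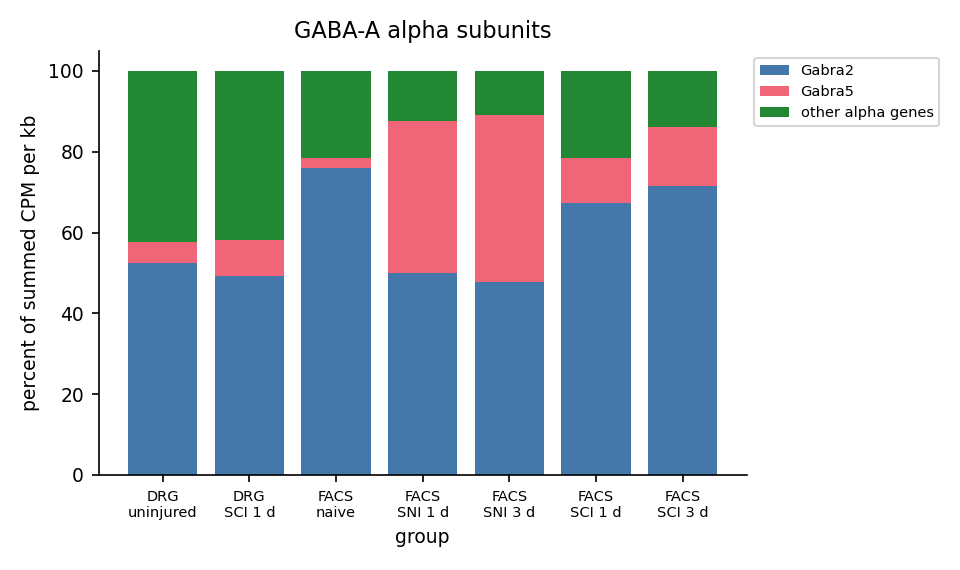
Percent of the summed CPM per kilobase of the GABA-A alpha genes that Gabra2, Gabra5 and the other alpha genes together supply, as stacked bars of group means for whole DRG and for the FACS groups without glia-rich wells. Gabra5 makes up 2.25% of the alpha sum in naive neurons and 41.4% 3 days after SNI.

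Counts for SNI at 1 day were as follows. With all wells 1 member, Chrnb4, was called (0.519% of all genes were), and DESeq2 called 9 (6.16% of all genes). At an unadjusted p under 0.05 by edgeR there were 14 members (9 higher and 5 lower), beside 3283 of all 23507 genes. Without glia-rich wells 5 were called, 4 higher (Gabra5, Chrnb4, Chrnb3 and Gabrg1) and 1 lower, while 6.47% of all genes were called (5.6% higher and 0.871% lower). DESeq2 without glia-rich wells called 10 (12.5% of all genes). Without glia-rich wells and covariates 0 were called by edgeR (0.172% of all genes), with 8 at an unadjusted p under 0.05 (2981 of all 22620 genes). Groups did not overlap for Gabra5 and Grik1 above (1.3% of all genes) and for 0 members below (0.417%). Without glia-rich wells they did not overlap for Gabra5 above (1.81%) and for 1 member below (0.522%). With 1 mouse left out, the count was 0 without SNI 1-day replicate 4, naive replicate 5 or naive replicate 6. It was 2 without SCI 1-day replicate 4 or SCI 3-day replicate 3 or 4, 3 without SNI 3-day replicate 3, and 1 in the other 15 fits. The median log2 fold change was 0.04 for the members and 0.15 for all genes, 0.12 and 0.35 without glia-rich wells, and −0.53 and −0.05 without glia-rich wells and covariates.

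For SNI at 3 days, 1 member was called with all wells (0.442% of all genes were), and DESeq2 called 17 (9.14% of all genes). At an unadjusted p under 0.05 by edgeR there were 18 members (5 higher and 13 lower), beside 3106 of all 23507 genes. Without glia-rich wells 4 were called, 3 higher (Gabra5, Gabrg1 and Gabrb1) and 1 lower (4.99% of all genes, 4.16% higher and 0.822% lower), and DESeq2 called 12 (10.5%). Without glia-rich wells and covariates edgeR called 0 (0.0619% of all genes), with 15 at an unadjusted p under 0.05 (2727 of all 22620 genes). No member's groups failed to overlap with all wells (0.961% of all genes above and 0.311% below). Without glia-rich wells they did not overlap for 4 above, Gabra5, Gabrb1, Gabrg1 and Grik1 (3.75% of all genes), and for 2 below, among them P2rx4 (1.22%). With 1 mouse left out, 0 members were called without SNI 3-day replicate 1 or 4, 3 without SNI 3-day replicate 3 (Gabrg1, Gabrb1 and Gabra5), 4 without naive replicate 5 (Glrb, Gria4 and Gria2 among them), 3 without naive replicate 6 (Gria4 among them), and 1 in the other fits. The median log2 fold change was −0.95 for the members and −0.01 for all genes, 0.33 for both without glia-rich wells, and −0.31 and −0.04 without glia-rich wells and covariates. The sign of the members' median thus turned with these choices at both times. The median SE of a member in the FACS comparisons lay between 1.19 and 1.36, against 0.113 in whole DRG.

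The nicotinic calls rested on single mice. Chrnb4, the beta4 subunit gene, was at 0 in 5 of 6 naive mice and at 46.7 CPM (1854 reads) in naive replicate 5. At 1 day after SNI it stood at 0, 0, 0.0129 and 5.20 CPM (181 reads), and at 3 days at 0 in all 4 mice. The naive mean of 7.78 CPM was above the SNI mean of 1.30 CPM, while the fitted log2 fold change of 7.59 (SE 1.10, adjusted p 0.0311, range 0.00110 to 0.874) had the opposite sign, and it did not pass without SNI 1-day replicate 4 (1.76, adjusted p 0.156), naive replicate 5 (7.23, 0.246) or naive replicate 6 (2.57, 0.224). Chrnb3, another nicotinic gene, behaved in the same way without glia-rich wells: naive replicate 5 stood at 31.8 CPM and the other 5 at 0, against 0.870, 0, 0 and 0 CPM at 1 day after SNI, with a fitted 8.16 and an adjusted p of 0.0956. Naive replicate 5 was also the mouse with the highest nociceptor list, 15941 CPM.

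Among the glutamate receptor genes, Gria4 ranged from 7.18 to 68.2 CPM (median 37.3) in naive mice and stood at 24.2, 23.5, 6.89 and 17.6 CPM at 1 day and at 23.5, 33.0, 0.0778 and 16.7 CPM at 3 days after SNI. The groups overlapped at both times. At 3 days its log2 fold change was −2.61 (SE 0.680, adjusted p 0.122, range 0.000572 to 0.797), −0.99 without SNI replicate 3 and −0.96 without glia-rich wells (adjusted p 0.193), and it passed without naive replicate 5 or 6. At 1 day it was −1.60 (adjusted p 0.276), and −1.14 without glia-rich wells (adjusted p 0.104). Grik1 ranged from 0 to 35.2 CPM (median 10.5) in naive mice and stood at 51.8, 62.1, 48.2 and 36.4 CPM at 1 day after SNI. Every mouse at 1 day lay above every naive mouse, and without glia-rich wells, at 67.6, 80.4, 69.6 and 41.4 CPM, replicate 4 lay just under the highest naive mouse at 41.6 CPM. The change was 2.71 with all wells (SE 1.27, adjusted p 0.350) and 2.65 without glia-rich wells (SE 0.861, adjusted p 0.103), and did not pass in edgeR. DESeq2 called Grik1 at both times after SNI without glia-rich wells, and at neither time with all wells. Without glia-rich wells the AMPA genes summed to 14.3 ± 4.22 CPM per kb in naive mice, 6.15 ± 2.34 at 1 day and 7.92 ± 2.41 at 3 days after SNI, while the kainate genes summed to 5.95 ± 2.57, 12.0 ± 2.32 and 11.2 ± 1.53 CPM per kb.

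The 5-HT3 and P2X genes of small sensory neurons were spread widely among mice. Htr3a ranged from 2.13 to 497 CPM (median 59.1) in naive mice and stood at 6.87, 1.55, 0.785 and 74.6 CPM at 1 day and at 7.44, 14.8, 0.493 and 4.59 CPM at 3 days after SNI. The 3-day mice lay within or below the naive range (−4.27, adjusted p 0.371; without glia-rich wells −4.05, adjusted p 0.239). P2rx3 ranged from 0 to 143 CPM in naive mice and stood at 2.25, 1.57, 0.182 and 0.0872 CPM at 3 days after SNI (−4.93, adjusted p 0.383; without glia-rich wells −4.27, adjusted p 0.233). DESeq2 called both genes lower at 3 days, with all wells (adjusted p 0.0176 for Htr3a and 0.0149 for P2rx3) and without glia-rich wells (0.0760 and 0.0792), so these calls depended on the tool. The nociceptor list averaged 4709 CPM in naive mice and 197 CPM at 3 days after SNI, and its part in these values was not tested.

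Sorted neurons after SCI were compared with the same naive mice to ask how neurons respond when their spinal branch is cut. No GABA-A gene was called at either time. Gabra5 stood at 6.39, 6.82, 16.1 and 28.8 CPM at 1 day and 3.01, 15.0, 0.184 and 73.8 CPM at 3 days, where all wells of the mouse at 0.184 CPM were glia-rich, against a naive range of 0 to 15.7 CPM. Injured replicates 3 and 4 at 1 day and replicate 4 at 3 days were above the naive mice, and the others overlapped them. The changes were 2.75 (SE 1.26, adjusted p 0.419) and 3.04 (SE 1.27, adjusted p 0.494), and at 3 days 3.60 without glia-rich wells (adjusted p 0.332).

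Chrnb4 was the member called at 1 day after SCI, where it stood at 0, 0, 0.0631 and 44.4 CPM, with 2950 reads in replicate 4. That mouse and naive replicate 5 held nearly all reads of the gene. The fitted log2 fold change of 8.86 (SE 1.20, adjusted p 0.0582, range 0.000732 to 1.0) passed in 9 of 22 fits with 1 mouse left out: those without SCI 1-day replicate 3, SCI 3-day replicate 3 or 4, SNI 1-day replicate 1 or 4, SNI 3-day replicate 1, 3 or 4, or naive replicate 2. In the other 13 it did not pass, and the change ran from 2.24 to 14.01 over all 22. It was not called without glia-rich wells (adjusted p 0.196). Its neighbour Chrna3 was at 41.5 CPM in the same SCI mouse and at most 0.0421 CPM in the other 3. Chrna4, the alpha4 subunit gene, was at 0 in all naive and SNI mice. It stood at 0.0479, 2.83, 0 and 0 CPM at 1 day (at most 119 reads, adjusted p 0.247) and at 1.64, 0.383, 0.0690 and 0 CPM at 3 days after SCI (at most 148 reads, adjusted p 0.441), so no fold is given. Gria4 at 3 days after SCI stood at 47.9, 40.8, 0.0690 and 16.2 CPM, inside the naive range but for the mouse with glia-rich wells (−2.05, adjusted p 0.490, range 0.0181 to 1.0; −0.58 without that mouse).

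With all wells, edgeR called 1 member 1 day after SCI (0.0468% of all genes), and DESeq2 called 4 (4.61% of all genes). At an unadjusted p under 0.05 by edgeR there were 10 members (9 higher and 1 lower), beside 2625 of all 23507 genes. Without glia-rich wells edgeR called 0 (0.0354% of all genes), with 14 at an unadjusted p under 0.05 (3625 of all 22620 genes). DESeq2 called 6 there (6.16%), and edgeR without covariates as well called 0 (0% of all genes). No member's groups were free of overlap, with all wells (0.362% of all genes above and 0.213% below) or without glia-rich wells (0.513% and 0.23%). At 3 days after SCI edgeR called 0 members (0.051% of all genes), and DESeq2 called 3 (4.73%), Gria4 and Gabra5 among them. At an unadjusted p under 0.05 by edgeR there were 11 members (4 higher and 7 lower), beside 2248 of all 23507 genes. Without glia-rich wells edgeR called 0 (0% of all genes), with 8 at an unadjusted p under 0.05, 4 by DESeq2 (2.55%) and 0 without covariates (0%). Groups did not overlap for 0 members with all wells (0.264% above and 0.0681% below), and without glia-rich wells for 1 member above (1.15%) and 0 below (0.217%). The median log2 fold change at 1 day was 0.67 for the members and 0.15 for all genes, and at 3 days −0.41 and 0.01. Without glia-rich wells it was 0.81 and 0.34 at 1 day, and 0.80 and 0.26 at 3 days, so the sign at 3 days turned with the choice of wells, and without covariates as well it was −0.02 and −0.06 at 1 day and −0.07 and −0.06 at 3 days.

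The SNI and SCI comparisons share the naive mice, so the injuries were set against each other directly. No member passed this test on either day. Gabra5 at 1 day, at 34.2 to 81.7 CPM after SNI and 6.39 to 28.8 CPM after SCI, was higher in each SNI mouse than in each SCI mouse (1.88, SE 1.18, adjusted p 0.608; without glia-rich wells 1.92, adjusted p 0.446). It was thus not shown to differ between the injuries. Gabra5 at 3 days differed by 0.87 (adjusted p 0.872).

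Htr3b at 1 day stood at 2.38, 0.175, 0.0772 and 1.24 CPM after SNI and at 0.168, 13.2, 65.4 and 108 CPM after SCI. SCI replicate 1 lay with the SNI mice and the other 3 far above them (−6.24, SE 1.80, adjusted p 0.421, range 0.000302 to 0.791), while naive mice ran from 0.327 to 45.0 CPM. The nociceptor list of these mice summed to 311, 73.6, 473 and 9121 CPM after SNI and to 218, 14.9, 2776 and 12496 CPM after SCI, and its part was not tested. Grik3, the GluK3 kainate subunit gene, was low in most mice: 17.5, 4.89, 0.746 and 1.55 CPM at 1 day after SNI against 0.455, 0, 0.0421 and 0 CPM after SCI (adjusted p 0.454, range 0.0196 to 0.791). At 3 days it stood at 4.88, 1.75, 0.597 and 1.96 CPM after SNI against 0.344, 0, 0 and 0 CPM after SCI (adjusted p 0.608, range 0.0250 to 0.933). With all wells SNI mice were above SCI mice on both days. Without glia-rich wells the groups overlapped at 1 day and did not overlap at 3 days. Over single wells Grik3 had a mean of 5.29 CPM (median 0, highest 96.9) in glia-rich wells and 1.74 CPM (median 0.0297) in the others.

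At 1 day edgeR called 0 members between the injuries (0% of all genes), with 10 at an unadjusted p under 0.05 (3 higher and 7 lower after SNI) and 5 by DESeq2 (4.67%). Without glia-rich wells it called 0 (0.796% of all genes), with 10 at an unadjusted p under 0.05, 5 by DESeq2 (6.58%) and 0 without covariates (0%). Groups did not overlap for Gabra5 and Grik3 above (2.6% of all genes) and for 2 members below, Gria4 among them (1.76%), and without glia-rich wells for Gabra5 above (3.4%) and for 2 below, Gria4 among them (2.02%). At 3 days it called 0 (0% of all genes), with 5 at an unadjusted p under 0.05 and 6 by DESeq2 (3.63%). Without glia-rich wells it called 0 (0%), with 7 at an unadjusted p under 0.05, 6 by DESeq2 (2.6%) and 0 without covariates (0%). Groups did not overlap for Grik3 above (1.07%) and 0 below (0.876%), and without glia-rich wells, with 3 mice against 3, for 4 above (6.8%) and 5 below (5.47%). Medians for members and all genes were −0.26 and 0.00 at 1 day and −0.42 and −0.02 at 3 days. Counts at an unadjusted p between the injuries are given without those over all genes, so they are not set against a background.

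A list of 41 genes for proteins that anchor, assemble or accompany these receptors had 1 gene called in whole DRG after SCI, where 2.32% of all genes were. Gsg1l, an auxiliary subunit of AMPA receptors, fell from 10.4, 10.3, 10.1 and 8.92 CPM to 6.73, 7.17, 6.74 and 7.11 CPM, with no overlap (−0.52, SE 0.0902, adjusted p 0.0315, lower in 4 of 4 mice). None of the 41 was called higher, 7 had an unadjusted p under 0.05, DESeq2 called 3 (5.27% of all genes), and the median was −0.04 against 0.01 for all genes. Counts at an unadjusted p in this list and the next are to be read beside those over all genes above, where given. In sorted neurons 39 were tested. Dlg2, which encodes a scaffold of glutamate receptor synapses, was called higher at 1 day after SNI, where it stood at 39.9, 50.8, 42.1 and 45.3 CPM against 0.0252 to 67.8 CPM (median 19.1) in naive mice (2.11, SE 0.503, adjusted p 0.0958; 1.67 and 0.0926 without glia-rich wells). It was called again at 3 days, at 64.5, 47.5, 43.3 and 46.1 CPM (2.39, adjusted p 0.0733), though not without glia-rich wells (adjusted p 0.146). At both times each SNI mouse lay inside the naive range of Dlg2. With all wells 0.519% of all genes were called at 1 day and 0.442% at 3 days. Gabarapl1, of the family that binds GABA-A receptors during their transport, was called higher at 3 days, at 1468, 789, 1068 and 1131 CPM against 410.6 to 695 CPM (median 497) in naive mice, with no overlap (1.12, SE 0.206, adjusted p 0.0332; 0.89 and 0.0391 without glia-rich wells). Without glia-rich wells 3 genes of the list were called higher at 1 day (5.6% of all genes were) and 6 higher and 1 lower at 3 days (4.16% and 0.822% of all genes). The list's median was 0.40 against 0.15 for all genes at 1 day and −0.01 for both at 3 days. After SCI edgeR called 0 of the list at 1 day (6 at an unadjusted p under 0.05, 4 by DESeq2, median 0.47 against 0.15) and 0 at 3 days (5, 3, and 0.30 against 0.01). DESeq2 called 4.61% and 4.73% of all genes at these times. Between the injuries edgeR called 0 at 1 day (1 at an unadjusted p under 0.05, 0 by DESeq2, median −0.28 against 0.00) and 0 at 3 days (4, 3, and −0.13 against −0.02), where DESeq2 called 4.67% and 3.63% of all genes. In naive sorted neurons against whole DRG the exact permutation test called 3 higher and 28 lower (9.23% and 48.1% of all genes), with a median of −1.79 against −0.79.

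A list of 26 genes covered transmitter supply and uptake, metabotropic GABA receptors and the chloride gradient. It also had 1 gene called in whole DRG, of 21 tested, beside 2.32% of all genes. Glul, the glutamine synthetase gene of glia, rose from 445, 463, 440 and 477 CPM to 572, 585, 592 and 530 CPM, with no overlap (0.32, SE 0.0592, adjusted p 0.0358, higher in 4 of 4 mice). In that list 6 genes had an unadjusted p under 0.05, DESeq2 called 2 higher and 2 lower (5.27% of all genes were called), and the median was −0.03 against 0.01. In sorted neurons edgeR called 0 of 22 in each comparison with all wells. At 1 day after SNI 5 had an unadjusted p under 0.05, DESeq2 called 4 (6.16% of all genes) and the median was 0.89 against 0.15. Without glia-rich wells Slc17a7, a vesicular glutamate transporter gene, and Glul were called higher (5.6% of all genes were). At 3 days after SNI the figures were 4, 4 (9.14% of all genes) and 0.05 against −0.01. Without glia-rich wells 3 were called higher there, Slc17a7 and Gad2 among them (4.16% of all genes were), and the median was −0.12 against 0.33. After SCI the figures with all wells were 3, 0 (4.61% of all genes) and 0.59 against 0.15 at 1 day, and 2, 3 (4.73%) and 0.07 against 0.01 at 3 days. Between the injuries they were 2, 2 (4.67%) and 0.20 against 0.00 at 1 day, and 5, 3 (3.63%) and −0.45 against −0.02 at 3 days. In naive sorted neurons against whole DRG 0 of the 21 tested were higher and 17 lower by the exact permutation test (9.23% and 48.1% of all genes), with a median of −2.28 against −0.79.

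Promoters of 300 bases, from 250 before to 50 after the start of the gene, were taken from RefSeq on GRCm38.p6 and matched 47 of the 56 members. They are shown for Htr3b and Gabra5, called members that rose in whole DRG after SCI. Both lie on the minus strand, at chr9:48964941-48965240 (44.3% G or C) and chr7:57510010-57510309 (56.7% G or C), and are printed 5′ to 3′.
Htr3b: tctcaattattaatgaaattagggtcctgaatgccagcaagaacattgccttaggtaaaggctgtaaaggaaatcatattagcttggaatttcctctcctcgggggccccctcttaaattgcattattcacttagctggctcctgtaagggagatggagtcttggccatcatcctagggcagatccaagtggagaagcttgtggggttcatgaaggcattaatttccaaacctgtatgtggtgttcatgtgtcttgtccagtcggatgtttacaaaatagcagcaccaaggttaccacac
Gabra5: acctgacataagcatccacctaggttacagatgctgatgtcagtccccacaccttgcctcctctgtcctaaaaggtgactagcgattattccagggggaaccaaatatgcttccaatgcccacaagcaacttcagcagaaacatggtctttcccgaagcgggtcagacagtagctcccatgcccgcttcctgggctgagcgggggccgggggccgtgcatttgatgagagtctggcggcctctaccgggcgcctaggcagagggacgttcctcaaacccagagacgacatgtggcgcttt
The AP-1 motif TGACTCA was searched on both strands, and 1709 of 32851 promoters (5.20%) held it, among them those of the members Chrna1 and P2rx7. The cyclic AMP response element TGACGTCA, also searched on both strands, was in 588 promoters (1.79%) and in 0 members. Neither motif was in the sequences printed here, which says only that these letters are not in these windows.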

How the data were processed

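RNA was measured in 8 whole DRG libraries and in 66 wells of sorted neurons from 22 mice. The deposited files hold counts of reads per gene, which the authors made with cutadapt, STAR 2.5.3a and HTSeq 0.6.1 on mm10; the strand setting was not given in the sources used here. The 5 lines naming no gene, 33.1 to 37.0% of reads in whole DRG and 42.6 to 66.9% in wells, were left out of totals and tests. A further 123 columns of per-sample values in 7 tables of the authors, which also hold the authors' own comparisons, were not used. Outlier mice that the study left out were not identified, and all 22 sorted mice were used. Replicates are separate mice, and none of the libraries was a copy of another.

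Wells were summed per mouse. Genes were tested with a mean of at least 10 reads over the 8 whole DRG libraries (17616 genes) or at least 20 reads in 1 sorted mouse (23507 genes, 22620 without glia-rich wells). edgeR 4.0.16 in R 4.3.3 (limma 3.58.1) gave TMM factors and the quasi-likelihood F-test, two-sided, with Benjamini-Hochberg adjustment over all genes tested and a threshold of 0.1. The FACS fit held 5 groups and 2 RUVr factors from centred residuals, computed by code written here and tested on simulated data. The biological coefficient of variation was 0.133 in whole DRG and 1.19 in FACS. SE is the size of the log2 fold change divided by the square root of F. Naive FACS and uninjured DRG were compared by an exact permutation test on log2(CPM + 1), pseudocount 1, with CPM of each library's own total. Tables and plots were made in Python 3.11.15 (scipy 1.17.1, matplotlib 3.10.9, pandas 2.3.3, numpy 2.4.6), and 53274 of 53379 genes matched GENCODE vM21, 50604 with the version.

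Genes named with values per mouse were all called members, the 8 smallest p in whole DRG, the 2 smallest p in each FACS comparison, the highest member per kilobase of each family in whole DRG and in naive FACS, the 4 largest and 4 smallest differences between these, and the genes next to the read threshold. Some genes that the rule names are not reported here, though counts, sums and medians over members include them. Members, lists, centring and this rule were chosen with earlier results of these data known. Alternatives were DESeq2 1.42.0, DESeq2's size factors in edgeR, no filter on low counts, a threshold of 0.05, a pseudocount of 0.1, no covariates, the set in the sample titles or a replicate block as covariate, uncentred residuals, naive mice labelled with the same day, no glia-rich wells, and each mouse left out. No counting intervals are given, since mice were compared by their spread.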

Additional observations from a re-analysis of the deposited data

Results flagged for a closer look

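In 11 of 47 groups of 4 to 6 mice the highest or lowest mouse stood apart: its gap to the nearest other mouse was a large share of the group's whole range, above Dixon's 95% critical value. Chance flags about 1 in 20 groups. Causes were not tested.

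Of the flagged groups, 8 concerned nicotinic, kainate or GABA receptor genes that were below 1 CPM in the other mice of the group. Chrnb4 was at 46.7 CPM in naive replicate 5 and at 0 in the other naive mice (share of the range 1.0), at 44.4 CPM in SCI 1-day replicate 4 and at most 0.0631 CPM in the others (0.984), and at 5.20 CPM in SNI 1-day replicate 4 and at most 0.0129 CPM in the others (0.993). Chrna6 was at 64.3 CPM in naive replicate 5 and at most 0.0780 CPM in the others (0.982). Chrna4 was at 2.83 CPM in SCI 1-day replicate 2 and at most 0.0479 CPM in the others (0.965). Grik3 was highest in replicate 1 of both SCI groups, at 0.455 CPM against at most 0.0421 CPM at 1 day (0.89) and at 0.344 CPM against 0 at 3 days (1.0). Gabrr1 was at 5.95 CPM in naive replicate 4 and at most 0.933 CPM in the others (0.66).

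Better expressed genes made up the rest. P2rx4 was lowest in uninjured whole DRG replicate 1, at 25.9 CPM against 30.4 to 30.9 CPM (0.91), and highest in naive replicate 6, at 117 CPM against 18.2 to 32.5 CPM (0.693). Chrna7 was highest in uninjured whole DRG replicate 1, at 185 CPM against 129 to 135 CPM (0.864), and its change after SCI passed the test without that mouse.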

How the results depend on the processing

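Members called are counted here under each alternative. Shares of all genes, where shown here, stand in brackets, and the other counts are not set against a background. In whole DRG after SCI, 3 were called (2.32% of all genes), and 7 with DESeq2 (5.27%). There were 3 also with DESeq2's size factors and at a threshold of 0.05. No filter on low counts gave 5, leaving out the mice with muscle markers gave 1, and leaving out each mouse gave 1 to 5. A replicate block, pairing mice by replicate number, called 1. Residuals of mice with the same number correlated at −0.23 to 0.34 over 4 pairs, 1 of them above 0.1, and in FACS at −0.04 to 0.39 over 48 pairs, 32 of them above 0.1; the labels do not state that these numbers pair mice.

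In FACS, DESeq2 called 9 (6.16% of all genes) at 1 day and 17 (9.14%) at 3 days after SNI. It called 4 (4.61%) and 3 (4.73%) after SCI, and 5 (4.67%) and 6 (3.63%) between the injuries. DESeq2 without glia-rich wells called 10 (12.5%) and 12 (10.5%) after SNI. It called 6 (6.16%) and 4 (2.55%) after SCI there, and 5 (6.58%) and 6 (2.6%) between the injuries. edgeR without glia-rich wells called 5 (6.47%) and 4 (4.99%) after SNI, and 0 after SCI at both times (0.0354% and 0%). For both SNI times and SCI at 1 day, 0 were called with no covariates, without glia-rich wells and covariates, with the set as covariate, with uncentred residuals, with naive mice of the same day and with the replicate block. No filter on low counts gave 0 for SNI at 3 days, and the threshold of 0.05 gave 0 for SCI at 1 day. Leaving out each mouse gave 0 to 3 and 0 to 4 after SNI, 0 to 1 and 0 to 0 after SCI, 0 to 0 for each contrast of the injuries, and 26 to 34 for naive FACS against DRG. The cause was not tested.

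Chrnb4 reversed its sign: at 1 day after SNI it was −6.26 with the replicate block, −2.58 with no covariates, −3.39 without glia-rich wells and covariates and −2.25 with the set as covariate, and at 1 day after SCI −3.54 with the block and −0.39 without glia-rich wells and covariates. None of these fits called a member. Gabrr1 and P2rx4 also changed sign between naive FACS and whole DRG when 1 naive mouse was left out, and neither was called in that comparison. Of single-gene values under alternatives, 548 kept direction and side of the threshold, 48 lost the call and 25 gained it. FACS calls thus depended on the covariates and on 1 or a few mice per group, and scarce subunits were read from few mice. Leaving out mice was run with all wells.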
